A study of Mus musculus with 32 samples.

Results

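Nucleotides for RNA and DNA are either built from small precursors (de novo synthesis) or recovered from free bases and nucleosides (salvage), and the enzymes of de novo synthesis are known targets of MYC. The 10 genes described here encode such enzymes: Ppat, Paics, Gart and Atic build the purine ring, Impdh1, Impdh2 and Gmps lead from inosine monophosphate (IMP) to guanine nucleotides, and Cad, Umps and Ctps make pyrimidines. They were taken by gene symbol, in a choice made with earlier results of these data known. All 10 were found among the 37310 genes of the count table. RNA from 6 GMYC and 8 GTML brain tumor biopsies was compared, which asks how the enzymes differ between tumors driven by MYC and tumors driven by MYCN. GMYC mice (Glt1-tTA/TRE-MYC) carry a MYC transgene that is switched on by the tetracycline transactivator under the Glt1 promoter, and GTML mice carry MYCN in the corresponding system. Both models were on the FVB/N background, and expression was restricted to cells that use the Glt1 promoter. The labels give no age for the mice.

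In purine synthesis, PPAT takes the first committed step from phosphoribosyl pyrophosphate (PRPP), and GART, PAICS and ATIC carry out several of the later steps up to IMP. IMP dehydrogenase, encoded by Impdh1 and Impdh2, is the rate-limiting enzyme of guanine nucleotide synthesis, and GMPS completes the branch. In pyrimidine synthesis, CAD catalyses the opening steps, UMPS forms uridine monophosphate and CTP synthase, encoded by Ctps and Ctps2, converts UTP to CTP.

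The values are read counts per gene, scaled to library sizes adjusted by TMM and shown as CPM. Total counts ranged from 6218378 to 7279811 in GMYC and from 4602294 to 6317404 in GTML tumors. Each of the 10 genes had between 273 and 3479 counts in every tumor. Myc was measured at 33.4 CPM in GMYC tumor 6, at 134 to 166 CPM in the other GMYC tumors and at 2.60 to 8.68 CPM in GTML. Mycn lay between 7.65 and 34.4 CPM in GMYC and between 119 and 191 CPM in GTML, so each model expressed its own driver. The reads were assigned to the mouse genes, and how those of a transgene were placed was not tested. The medulloblastoma markers Otx2, Npr3, Syp and Tubb3 were present in all tumors, with summed levels of 628 to 756 CPM in GMYC and 527 to 768 CPM in GTML. Small nucleolar RNAs took at least 0.366% of the counts in 6 tumors (GMYC 1 to 4 and GTML 1 and 2) and at most 0.272% in the other 8, and values within each of these sides are given for the enzymes that passed the threshold or came near it. Y-linked genes were unevenly spread over the models, with summed levels of 293 to 479 CPM in the GMYC tumors and of 2.45 to 3.799 CPM in GTML tumors 2, 3, 5 and 8, against 206 to 417 CPM in the other GTML tumors. The labels give no sex, so differences of sex and of model can be told apart in part only. In its own comparisons of the models the study set aside an outlying GTML tumor that the labels do not name. All GTML tumors are used here, and results without GTML tumor 2 are given beside them. Nothing in the labels marks GTML tumor 2 as the tumor that the study set aside. It had the highest level within GTML of 7 of the 10 enzymes. Calls gained without it therefore rest on a choice seen in the enzymes' own values, and are given as descriptions. The methods describe a share of the GTML libraries as made earlier, and the labels do not mark them, so that model and time of sequencing cannot be told apart. In biopsies, fewer tumor cells and less RNA per cell cannot be told apart.

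Paics, Gart and Impdh2 were higher in GMYC than in GTML tumors, by 1.33-, 1.39- and 1.76-fold. They were 3 of the 10 enzymes that passed an adjusted p of 0.05 (edgeR's quasi-likelihood test, Benjamini-Hochberg adjustment over 21024 genes), where 9.71% of all genes tested were called higher in GMYC. No enzyme was called higher in GTML, where 11.5% of all genes were: edgeR, DESeq2 and limma-voom each called 0, and 1 enzyme (Impdh1) was higher in GTML at an unadjusted p under 0.05. None of the 10 passed an adjusted p of 0.01 together with a log2 fold change beyond 1, which 1.1% of genes did toward GMYC and 2.11% toward GTML. The median log2 fold change, GTML over GMYC, was -0.30 over the 10 enzymes and 0.04 over all genes tested, with 7 enzymes below 0 and 3 above.

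**Figure D1:**
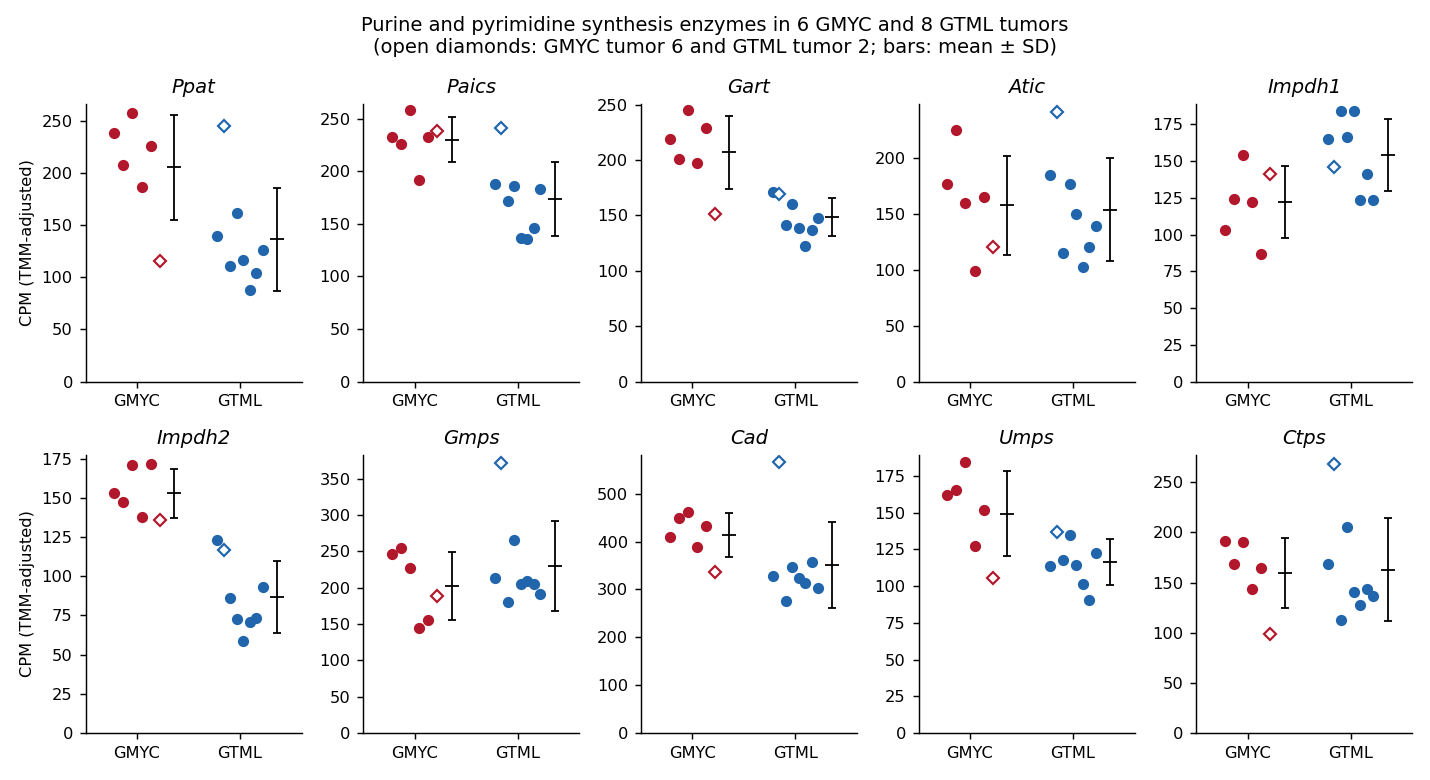
Level of each enzyme (CPM on TMM-adjusted library sizes) in 6 GMYC (red) and 8 GTML (blue) tumors. Open diamonds mark GMYC tumor 6 and GTML tumor 2, and bars give the mean ± SD. Impdh2 is the only enzyme of the 10 whose models do not overlap.

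Impdh2 showed the largest difference of the 10. Its level was 136 CPM in the lowest, 150 CPM in the median and 172 CPM in the highest GMYC tumor, against 58.8, 79.7 and 123 CPM in GTML. Every GMYC tumor lay above every GTML tumor, which held for 2.48% of all genes tested. The log2 fold change was -0.82 ± 0.153 (SE), with an adjusted p of 0.00477 in edgeR's test. It was -0.89 (adjusted p = 0.00168) without GTML tumor 2 and -0.85 (adjusted p = 0.00808) without GMYC tumor 6, and it passed the threshold with each of the 14 tumors left out in turn. Among the 8 tumors with less small nucleolar RNA it was -1.03 (adjusted p = 0.0150, edgeR), and among the 6 with more, of which 2 are GTML, -0.34 (adjusted p = 0.390). The GTML tumors closest to GMYC were GTML 1 at 123 CPM and GTML 2 at 117 CPM, both on the side with more small nucleolar RNA, and the other 6 GTML tumors reached at most 93.4 CPM. When the fit included the small nucleolar RNA side of each tumor, the log2 fold change of Impdh2 was -0.71 (adjusted p = 0.0089, edgeR). The cause of that split was not tested.

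Impdh1, the gene of the other IMP dehydrogenase, stood the other way without passing the adjusted threshold. It was measured at 86.6 to 154 CPM in GMYC (median 123) and at 123 to 184 CPM in GTML (median 155), with 4 GTML tumors above every GMYC tumor. Its log2 fold change was 0.34 ± 0.138, with an adjusted p of 0.0875 (edgeR). Within a tumor the ratio of Impdh2 to Impdh1 counts does not depend on how libraries are scaled. That ratio ran from 0.965 to 1.98 in GMYC (median 1.16) and from 0.319 to 0.798 in GTML (median 0.547), so that the models did not overlap. Impdh2 exceeded Impdh1 in 5 of 6 GMYC and in 0 of 8 GTML tumors. The ratio combines both genes' differences and is given as a description, with no test.

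A processed pseudogene, Impdh2-ps (GRCm38 chr8:100030558-100032102, plus strand), bears on these values, since it is a copy of the Impdh2 coding sequence without introns. Impdh2 itself lies at GRCm38 chr9:108560286-108565584 on the plus strand. Over the 1545 coding bases the pair differed at 4 positions, counted from 1 at the A of the start codon: C270T, T882C, A891G and C1135T, with the Impdh2 base first. The longest stretch without a difference was 611 bases, and reads that lie inside such a stretch carry nothing that tells the loci apart. The 3 windows that hold the differences are printed from the GENCODE M21 transcripts, with the differing bases in capitals, because within the coding exons only reads across them hold a base that tells gene and copy apart. The annotated copy ends with the coding sequence, and exon bases of Impdh2 beyond it belong in the annotation to the gene alone.
Impdh2, bases 250 to 290: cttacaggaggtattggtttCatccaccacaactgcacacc
Impdh2-ps, bases 250 to 290: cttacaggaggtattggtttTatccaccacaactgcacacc
Impdh2, bases 862 to 911: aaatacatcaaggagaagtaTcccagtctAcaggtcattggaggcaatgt
Impdh2-ps, bases 862 to 911: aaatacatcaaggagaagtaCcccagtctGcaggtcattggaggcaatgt
Impdh2, bases 1115 to 1155: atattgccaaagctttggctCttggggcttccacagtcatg
Impdh2-ps, bases 1115 to 1155: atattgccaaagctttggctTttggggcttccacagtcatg

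Counts were assigned to both loci. Impdh2-ps had 108 to 139 CPM in GMYC and 28.9 to 90.3 CPM in GTML tumors, again without overlap, and its log2 fold change was -1.26 ± 0.1995 (adjusted p = 0.00253, edgeR). For each count on Impdh2 there were 0.770 to 0.936 counts on Impdh2-ps in GMYC and 0.491 to 0.736 in GTML. The pseudogene count therefore stood lower against the gene count in every GTML tumor. When the counts of gene and copy were added, the log2 fold change was -1.002 ± 0.165 (adjusted p = 0.00279, edgeR), and the ratio to Impdh1 was 1.78 to 3.51 in GMYC and 0.476 to 1.29 in GTML. How reads that fit both loci were counted is not given in the sources used here, so the level of Impdh2 is uncertain. The direction was the same for the gene, the copy and their sum. These are not independent readings, since reads can fit both loci, and they cannot tell which locus differs.

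**Figure D2:**
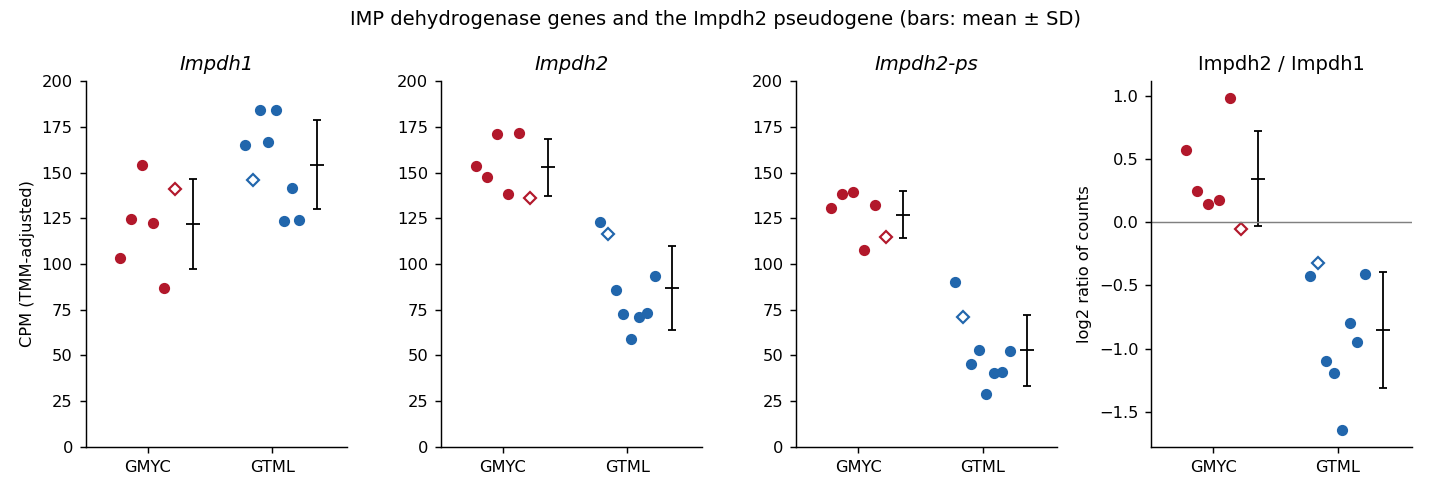
Impdh1, Impdh2 and Impdh2-ps (CPM) and the log2 ratio of Impdh2 to Impdh1 counts in each GMYC (red) and GTML (blue) tumor, with the mean ± SD as bars and open diamonds for GMYC tumor 6 and GTML tumor 2. Impdh2, its pseudogene and the ratio separate the models, and Impdh1 overlaps.

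Gmps, whose enzyme forms GMP after IMP dehydrogenase, did not follow Impdh2. It had 145 to 255 CPM in GMYC (median 207) and 180 to 371 CPM in GTML (median 207). The models overlapped and the log2 fold change was 0.18 ± 0.174 (adjusted p = 0.452, edgeR). The count of Gmps per count of Impdh2 was 0.902 to 1.73 in GMYC and 1.74 to 3.65 in GTML. The models were thus just separate in this ratio within tumors. Impdh2 alone already separated the models, so the ratio is no separate result. The ratios of Ppat to Paics, of Ctps to Ctps2 and of Cad to Umps overlapped between the models.

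Of the purine ring enzymes, Gart differed most steadily. GART is a trifunctional enzyme, and its gene lies at GRCm38 chr16:91621186-91646952 on the minus strand. The level was 151, 210 and 245 CPM in the lowest, median and highest GMYC tumor and 122, 144 and 171 CPM in GTML. All GTML tumors lay below 5 of the GMYC tumors, and GMYC tumor 6 lay among them. The log2 fold change was -0.48 ± 0.111 (adjusted p = 0.0103, edgeR), and like that of Impdh2 it stayed past the threshold with any 1 tumor left out. It was -0.33 (adjusted p = 0.396) within the 6 tumors rich in small nucleolar RNA and -0.44 (adjusted p = 0.101) within the other 8. When the fit over all tumors included the small nucleolar RNA side, Gart was at -0.39 and still called (adjusted p = 0.0330, edgeR). An antisense gene, Gm15964, shares 1014 exon bases with Gart but had at most 50 counts in any tumor.

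Paics encodes the bifunctional enzyme between the GART and ATIC steps. It had 192, 233 and 258 CPM in the lowest, median and highest GMYC tumor and 135, 178 and 241 CPM in GTML. GTML tumor 2 held the 241 CPM, and the other 7 GTML tumors, at 135 to 189 CPM, all lay below the lowest GMYC tumor. With GTML tumor 2 left out, Paics and Impdh2 thus separated the models, as 4.23% of all genes did toward GMYC. The log2 fold change was -0.41 ± 0.125 with an adjusted p of 0.0316 (edgeR). This call was less steady than those of Gart and Impdh2. It was lost without GMYC tumor 1, 3, 5 or 6 or GTML tumor 5, with adjusted p between 0.0514 and 0.0773, and when the fit included the small nucleolar RNA side of each tumor (adjusted p = 0.0855), or the level of Y-linked genes (-0.51, adjusted p = 0.0603). Within the side richer in these RNAs the value was -0.07 (adjusted p = 0.887) and within the other -0.57 (adjusted p = 0.0446).

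Ppat is the neighbour of Paics. The genes run in opposite directions from one region of chromosome 5 (Ppat at GRCm38 chr5:76913249-76951578 on the minus strand, Paics at chr5:76951307-76967509 on the plus strand) and share 272 exon bases, where reads counted without strand cannot be divided between them. Ppat had 116, 217 and 258 CPM in the lowest, median and highest GMYC tumor and 87.9, 121 and 245 CPM in GTML. The tumors that crossed between the models were GMYC 6, the lowest of its model, and GTML 2, the highest of its own. Its log2 fold change of -0.59 ± 0.214 was larger in size than that of Paics, but its wider spread left it at an adjusted p of 0.0593 (edgeR). It passed the threshold without GTML tumor 2 (-0.76, adjusted p = 0.00606) and without GMYC tumor 6 (-0.71, adjusted p = 0.0274). Among the tumors with more small nucleolar RNA it was -0.20 (adjusted p = 0.761) and among those with less -0.54 (adjusted p = 0.167). When the fit over all tumors included the small nucleolar RNA side, Ppat was at -0.38 (adjusted p = 0.178, edgeR).

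Atic, whose enzyme closes the purine ring, did not pass the threshold. It had 98.8 to 225 CPM in GMYC (median 162) and 102 to 241 CPM in GTML (median 145), with a log2 fold change of -0.03 ± 0.204 (adjusted p = 0.918, edgeR). Its spread within a model was wide, and the highest tumor of a model held 2.28 times the lowest in GMYC and 2.37 times in GTML.

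Of the pyrimidine enzymes Cad and Umps were lower on average in GTML without passing the threshold over all tumors. Cad, the most abundant of the 10 in CPM, had 337, 421 and 461 CPM in the lowest, median and highest GMYC tumor and 277, 326 and 566 CPM in GTML. GTML tumor 2 exceeded every GMYC tumor, and the next GTML tumor had 358 CPM. Cad had a log2 fold change of -0.23 ± 0.139 (adjusted p = 0.229, edgeR), and without GTML tumor 2 it was -0.36 ± 0.0877 (adjusted p = 0.0083), so 1 tumor decided this call.

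Umps had 105, 157 and 185 CPM in the lowest, median and highest GMYC tumor and 90.7, 116 and 137 CPM in GTML. All GTML tumors lay below 4 of the GMYC tumors. Umps had a log2 fold change of -0.36 ± 0.128 (adjusted p = 0.0560, edgeR), which passed the threshold without GTML tumor 2 or 4 (adjusted p = 0.0314 and 0.0488) and without GMYC tumor 6 or 4 (adjusted p = 0.0221 and 0.0478). It was -0.34 (adjusted p = 0.483) and -0.19 (adjusted p = 0.506) within the sides with more and with less small nucleolar RNA. When the fit over all tumors included the small nucleolar RNA side, Umps was at -0.26 (adjusted p = 0.196, edgeR). Ctps had 98.6 to 191 CPM in GMYC and 113 to 269 CPM in GTML, with a log2 fold change of 0.03 ± 0.192 (adjusted p = 0.917). Its lowest GMYC value was again that of tumor 6 and its highest GTML value that of tumor 2.

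Those tumors stood apart across the group of enzymes. Within GTML, tumor 2 had the highest level of 7 of the 10 enzymes (Ppat, Paics, Atic, Gmps, Cad, Umps and Ctps), with a median log2 difference of 0.69 from the other GTML tumors. GMYC tumor 6, which also had the lowest Myc level of its model, had the lowest level within GMYC of 6 enzymes (Ppat, Gart, Impdh2, Cad, Umps and Ctps), with a median log2 difference of -0.37. Summed over the 10 enzymes, GMYC tumors held 1999 ± 262 CPM (SD, n = 6) and GTML tumors 1715 ± 356 CPM (SD, n = 8). GTML tumor 2, at 2502 CPM, was the highest of all 14 tumors, and GMYC tumor 6, at 1632 CPM, the lowest of its model.

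**Figure D3:**
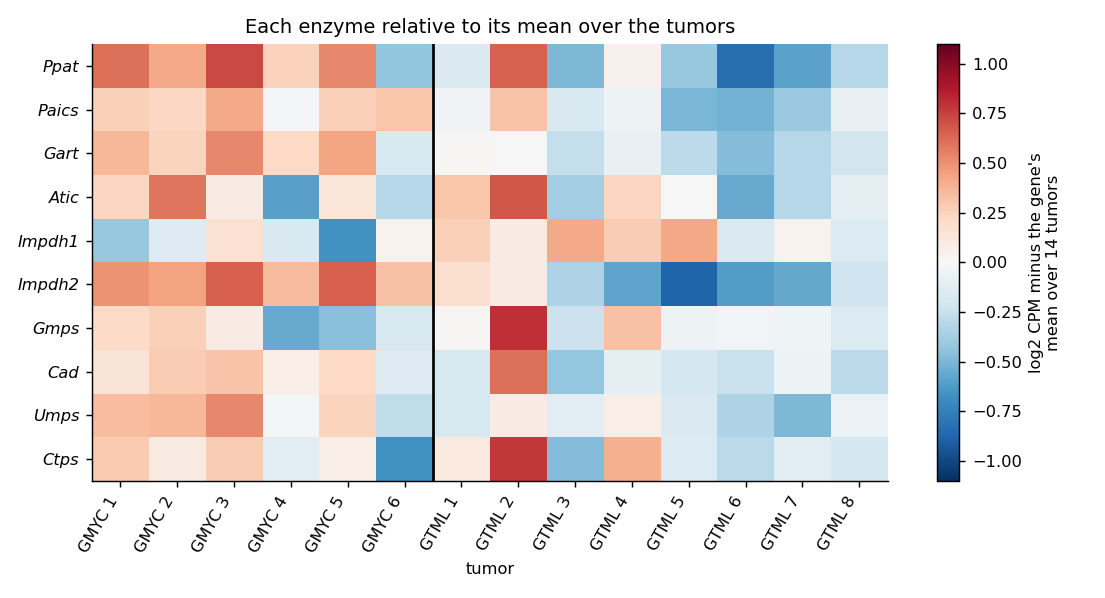
Each enzyme (rows) in each tumor (columns) as log2 CPM minus the mean of that enzyme over the 14 tumors, red above and blue below the mean, with a line between the models. GTML tumor 2 is above the mean for nearly all enzymes, GMYC tumor 6 is below it for most, and Impdh1 runs opposite to Impdh2.

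The number of enzymes called depended on these tumors. Without GTML tumor 2, 6 enzymes were called higher in GMYC (Ppat, Paics, Gart, Impdh2, Cad and Umps), but the share of all genes called higher in GMYC also went up, to 15.1%. Without GMYC tumor 6, 4 were called (Ppat, Gart, Impdh2 and Umps), at a background of 7.96%. With both left out, 6 were called at a background of 14.5%. Since these tumors stand out in the enzymes' own values, the counts without them are descriptions and add no support. Within the 8 tumors with less small nucleolar RNA 2 were called (Paics and Impdh2) at 6.69%. Within the 6 with more, edgeR called 0 at 0.0106%, with 1 enzyme (Impdh2) under an unadjusted p of 0.05, and DESeq2 and limma-voom were not run there. With the level of Y-linked genes as a covariate 2 were called, Gart (adjusted p = 0.0476) and Impdh2 (adjusted p = 0.0248), at a background of 2.74%.

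**Figure D4:**
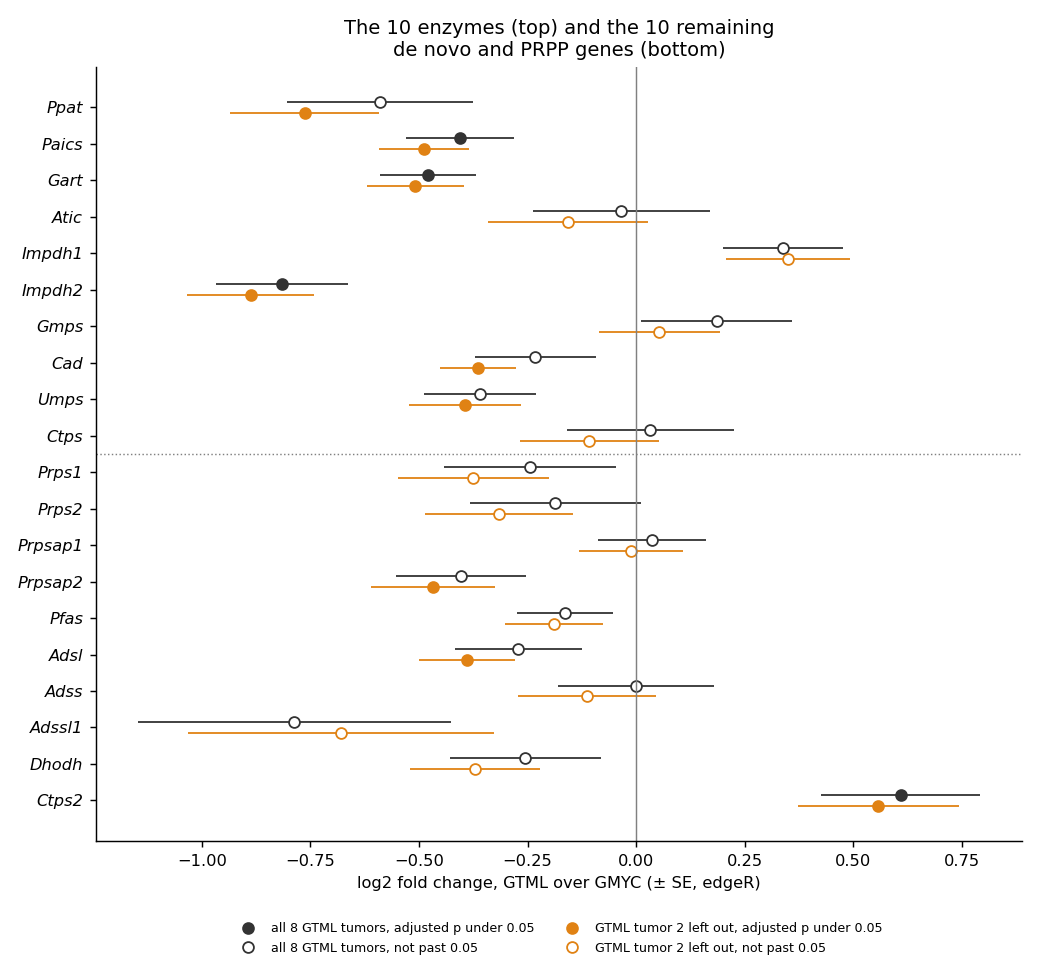
Log2 fold change, GTML over GMYC, with its SE for the 10 enzymes (above the dotted line) and the 10 remaining genes of de novo synthesis and PRPP supply, over all tumors (dark) and without GTML tumor 2 (orange). Filled points have an adjusted p under 0.05. Ppat, Cad, Umps, Prpsap2 and Adsl are filled only without GTML tumor 2, and Ctps2 lies on the GTML side in both.

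Levels were compared between the enzymes per kilobase of exon. The counts on Impdh2-ps are left out of this comparison, so the place of Impdh2 in it is uncertain. In GMYC tumors Paics led at 73.3 ± 6.89 CPM per kilobase (SD, n = 6), followed by Cad at 50.5 ± 5.57, Impdh2 at 49.7 ± 5.05, Ctps at 48.1 ± 10.4 and Ppat at 46.4 ± 11.4. Umps, Gart, Impdh1, Gmps and Atic came next, down to 19.7 ± 5.53 for Atic. Only Paics stood clear of its neighbour by more than the summed SDs, and from Cad to Atic each neighbouring pair lay within them. In GTML tumors Paics again led, at 55.3 ± 11.2 CPM per kilobase (SD, n = 8), and no neighbouring pair differed beyond its spread. By its own counts alone, Impdh2 was the third highest in GMYC and the second lowest in GTML, at 28.2 ± 7.41. Impdh2-ps, to which reads of Impdh2 can also fit, had 82.2 ± 8.35 CPM per kilobase in GMYC and 34.2 ± 12.6 in GTML. Impdh1 was at 37.0 ± 7.46 in GMYC and 46.8 ± 7.42 in GTML.

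MYC and MYCN are known to bind, with MAX, the E-box CACGTG, a palindrome that reads the same on both strands. RefSeq promoter windows (GRCm38.p6, 250 bases before to 50 bases after the start) were matched for all 10 enzymes in 12 windows, since Ctps and Impdh1 have a pair each. The motif was found for 3 of the 10 genes, Atic, Paics and Impdh2, against 8.09% of all genes in that table and 10.98% of those that were also tested here. The stretches around it are shown in the direction of the gene, with the motif in capitals.
Atic, chr1:71557137-71557155, plus strand: ggacctcggggtCACGTGg
Paics, chr5:76951087-76951116, plus strand: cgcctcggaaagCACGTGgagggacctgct
Impdh2, chr9:108560314-108560343, plus strand: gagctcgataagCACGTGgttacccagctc
The motif lay 7 to 2 bases before the start in Atic, 203 to 198 before it in Paics and 110 to 105 before it in Impdh2. In the GENCODE annotation the Impdh2 stretch falls within an untranslated exon of Impdh2 and the Paics stretch within one of Ppat on the other strand. The Atic stretch reaches into an untranslated exon of Atic. Of the 3 genes with the motif, Paics and Impdh2 were called higher in GMYC and Atic, with an adjusted p of 0.918 (edgeR), was not. Of the genes without the motif, Gart was called higher in GMYC, and Ppat, Umps, Cad, Impdh1, Gmps and Ctps were not. Binding was not measured, and the match is a description of these letters in these windows.

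The other genes of nucleotide metabolism were taken from lists of 50 genes, of which 46 were tested. edgeR called 7 of them higher in GMYC and 2 higher in GTML, against the 9.71% and 11.5% of all genes. Among the 10 remaining genes of de novo synthesis and PRPP supply, edgeR called 1, Ctps2, higher in GTML and 0 higher in GMYC, with 2 under an unadjusted p of 0.05 toward GMYC, of which DESeq2 called 1 and limma-voom 0. Ctps2, the second CTP synthase gene, had 48.2 to 72.5 CPM in GMYC and 59.0 to 127 CPM in GTML, with a log2 fold change of 0.61 ± 0.184 (adjusted p = 0.0295), where Ctps itself was at 0.03. The Ctps2 value was 1.02 (adjusted p = 0.201) and 0.49 (adjusted p = 0.191) within the sides with more and with less small nucleolar RNA. With the level of Y-linked genes as a covariate it was 0.69 and no longer called (adjusted p = 0.0701, edgeR).

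The other de novo genes lay between. For the PRPP synthetase genes Prps1 and Prps2 the log2 fold changes were -0.24 and -0.19, and those of the associated proteins Prpsap1 and Prpsap2 were 0.04 and -0.40. Pfas (-0.16) and Adsl (-0.27), which act between PPAT and IMP, and Dhodh (-0.26), the mitochondrial enzyme between CAD and UMPS, were on the GMYC side without passing the threshold. The genes of adenylosuccinate synthetase, which leads from IMP to adenine nucleotides, were at 0.00 (Adss) and -0.79 (Adssl1, adjusted p = 0.122). Without GTML tumor 2, Prpsap2 (adjusted p = 0.0240) and Adsl (adjusted p = 0.0176) were called higher in GMYC and Ctps2 (adjusted p = 0.0335) was still called higher in GTML (edgeR).

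In the salvage list 3 of 11 genes tested were higher in GMYC, beside the 9.71% of all genes: Hprt, which recovers guanine and hypoxanthine (log2 fold change -0.70 ± 0.166, adjusted p = 0.0115), the adenosine kinase gene Adk (-0.57, adjusted p = 0.0201) and the deoxycytidine kinase gene Dck (-0.50, adjusted p = 0.0311). Of 14 genes of deoxynucleotide supply and nucleotide kinases 3 were higher in GMYC: Rrm1, a subunit of ribonucleotide reductase (-0.40, adjusted p = 0.0200), Guk1, the guanylate kinase (-0.49, adjusted p = 0.0201), and Dut, the dUTPase (-0.41, adjusted p = 0.0400). Of 11 breakdown and interconversion genes tested, the nucleotidase gene Nt5c was higher in GMYC (-0.50, adjusted p = 0.0201) and the AMP deaminase gene Ampd3 higher in GTML (0.91, adjusted p = 0.0439), beside 9.71% and 11.5% of all genes. Several of these calls depended on the fit. Adk (adjusted p = 0.0560), Dck (0.0538), Dut (0.103) and Ampd3 (0.0792) were not called when the fit included the small nucleolar RNA side, and with the level of Y-linked genes as a covariate only Hprt and Adk were called of the 8 (edgeR). Among the 8 tumors with less small nucleolar RNA Hprt was at -1.01 (adjusted p = 0.0157), Dck at -0.76 (adjusted p = 0.0441) and Rrm1 at -0.56 (adjusted p = 0.0476), and among the 6 with more none of these 8 genes passed the threshold. The median log2 fold changes of these lists ran from -0.23 to -0.19, next to -0.30 for the 10 enzymes and 0.04 for all genes. Cda, Dpys and Upb1 had at most 6 counts in any tumor and were not tested, and Pnp was not analysed here.

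**Figure D5:**
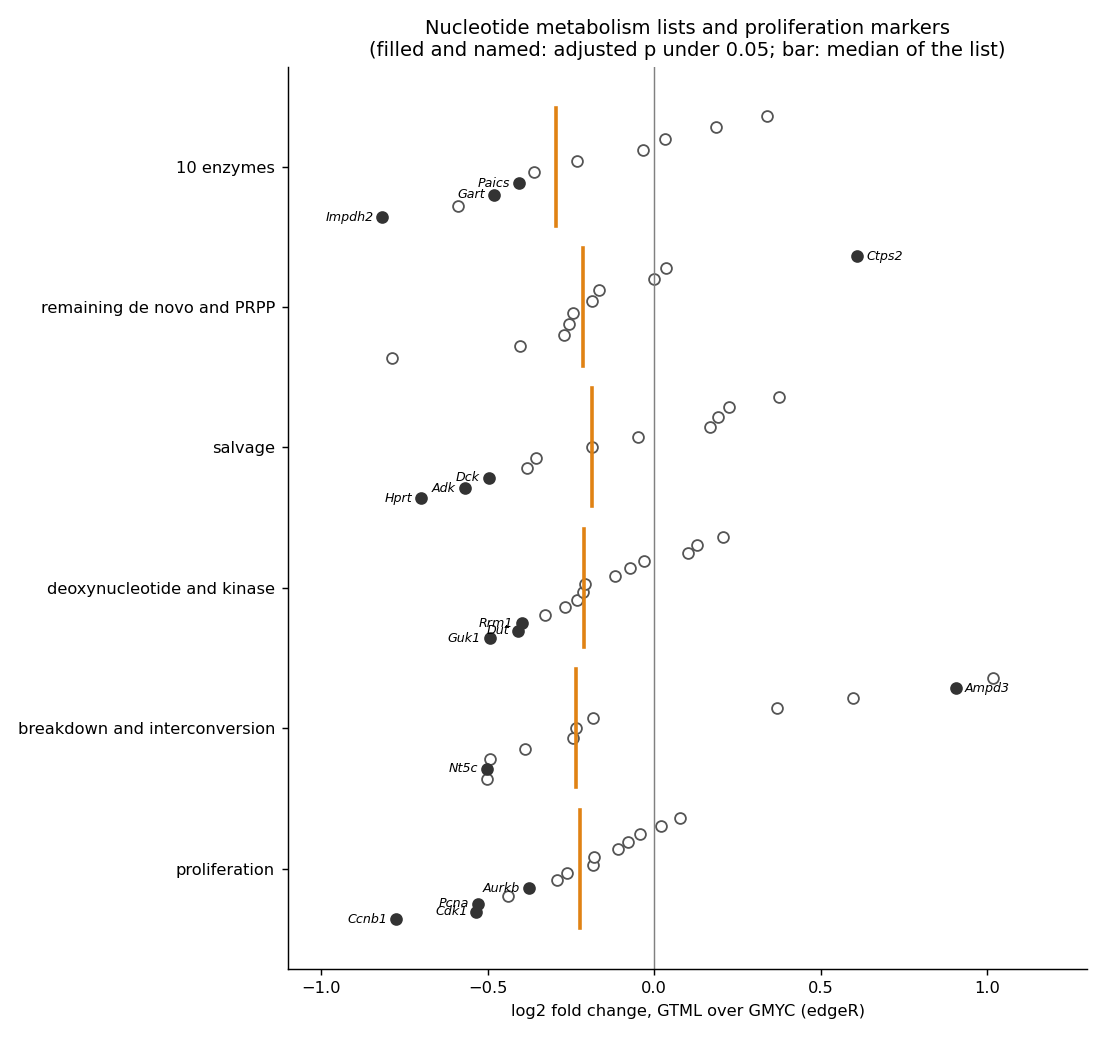
Log2 fold change, GTML over GMYC, of each gene tested in the lists of nucleotide metabolism and of the proliferation markers. Filled, named points have an adjusted p under 0.05 and vertical bars give the median of each list. The medians of the lists all lie on the GMYC side, between -0.30 and -0.19.

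Marker genes of proliferation and of other cells were counted in the same way, against the 9.71% of all genes called higher in GMYC and the 11.5% called higher in GTML. Of 14 proliferation markers, 4 were called higher in GMYC (Ccnb1, Cdk1, Pcna and Aurkb), with a median log2 fold change of -0.22. Their summed level overlapped, at 2580 to 4382 CPM in GMYC and 2590 to 3683 CPM in GTML. The highest sum in GTML was that of tumor 2, which was also highest for most of the enzymes, whereas the highest sum in GMYC was that of tumor 6, which was lowest for 6 of them. Of 7 astrocyte markers 0 were called by edgeR (2 under an unadjusted p of 0.05, 1 called by DESeq2 and 0 by limma-voom). Their summed levels were 803 to 1376 CPM in GMYC and 540 to 965 CPM in GTML. All 7 had a log2 fold change below 0, with a median of -0.85. Of 5 red blood cell genes 4 were called higher in GMYC (summed 53.4 to 176 CPM against 41.6 to 134 CPM), with a median of -2.14. The medians were -0.79 for granule and Purkinje neurons and -0.31 for microglia and macrophages. They were -0.30 for oligodendrocytes and 0.26 for endothelial cells. For microglia and macrophages 1 of 10 markers was called higher in GMYC, for oligodendrocytes 2 of 7 in GMYC and 1 in GTML, for endothelial cells 1 of 6 in GTML and for granule and Purkinje neurons 1 of 5 tested in GMYC. No marker of these lists was at 0 in all tumors, and the part of these cells or of proliferation in the enzyme differences was not tested.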

How the data were processed

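Per the paper's methods, the authors aligned Ion Proton reads to mouse mm9 with STAR and Bowtie and counted them per gene with featureCounts. The deposited values are whole-number read counts with differing library totals, and so were taken as not normalized. The submitters' processing notes list STAR 2.4.0, Bowtie2 2.2 and Subread 1.5.2, the methods name other releases of STAR and Bowtie, and which made these counts was not settled. Strand handling is not given in the sources used here. A further 18 columns of per-sample counts match no sample label and were not used. Symbols, exon lengths and GRCm38 coordinates came from GENCODE M21 by Ensembl identifier (87.4% of genes).

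The test covered genes whose CPM exceeded 1 in 3 or more tumors and was made with edgeR 4.0.16 (TMM, quasi-likelihood, R 4.3.3), with DESeq2 1.42.0 and limma 3.58.1 as alternatives; in the other alternatives tumors, scaling, filters or covariates were changed. The code was tested on simulated data. Within models all 43 tumor pairs differed by more than sampling noise (chi-square per degree of freedom at least 5.67). The tumors are separate biopsies, and p-values measure the spread between them. Gene precision follows from the counts.

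Named were the 10 enzymes, Myc and Mycn, the remaining de novo genes and the 3 smallest p among called genes of each other list. Impdh2-ps, the overlapping genes and the named proliferation markers were added after values were seen. Members and lists were chosen with earlier results of these data known.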

Additional observations from a re-analysis of the deposited data

Results flagged for a closer look

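Of 24 sets of values examined, each a gene within a model, 4 had a tumor that stood far from the rest by Dixon's criterion. Chance gives about 1 in 20 sets (1.2 of 24) where values are normally distributed and sets are independent. These were CPM values of genes from the same tumors, so that rate is a rough guide only. In 3 of the 4 flagged sets the tumor was GTML 2: Ppat at 245 CPM (next highest 161), Gmps at 371 CPM (next 266) and Cad at 566 CPM (next 358). The fourth was Myc in GMYC tumor 6, at 33.4 CPM with the next lowest tumor at 134.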

How the results depend on the processing

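Impdh2, Gart, Paics, Ppat, Umps, Gmps and Impdh1 kept their direction in all 31 alternatives, and Impdh2 was called in 29, Gart in 28 and Paics in 21 of them. Of the 31, 14 left out a single tumor, with Impdh2 and Gart called in all 14 and Paics in 9. The alternatives reuse the same tumors and are not independent. Impdh2 was not called within the 6 tumors rich in small nucleolar RNA or with the replicate block. The number of enzymes called higher in GMYC, 3 over all tumors with edgeR, was 4 with DESeq2 and 3 with limma-voom. It was 5 with protein-coding genes only or with the trend with exon length removed. It was 6 without GTML tumor 2 and GMYC tumor 6 together, and 2 to 6 with single tumors left out (6 without GTML tumor 2). Other nucleotide genes called higher in GMYC, 7 over all tumors, then numbered 2 to 13, and 12 without both tumors. Those called higher in GTML, 2 over all tumors, numbered 0 to 3 with single tumors left out and 1 with limma-voom, without a filter on low counts, with protein-coding genes only, or after removal of the exon length trend. Over all genes, leaving out single tumors gave 1184 to 3166 calls higher in GMYC and 1433 to 3264 higher in GTML, and protein-coding genes alone gave 1360 higher in GMYC.

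Within the 6 tumors rich in small nucleolar RNA, of which 2 were GTML, edgeR called 2 genes higher in GMYC and 0 higher in GTML, 0 enzymes (1 at an unadjusted p under 0.05) and 0 other nucleotide genes. The median log2 fold change of the enzymes was 0.0016 there, Atic was at 0.38 and Cad at 0.074. The other 8 tumors gave 1334 and 1328 genes, with 4 and 1 other nucleotide genes. A term for these sides left 1428 genes higher in GTML and 4 other nucleotide genes higher in GMYC, with Atic at 0.13. A covariate from Y-linked genes left 576 and 1153 genes, and 2 and 0 other nucleotide genes. Ctps changed sign to -0.019 without the length trend and -0.21 without both tumors, and ranged from -0.11 to 0.10 with single tumors left out, where Atic ranged from -0.16 to 0.086. These signs belong to values near 0, and the cause of the changes was not tested.

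The replicate numbers of the labels did not pair the tumors: deviations of same-numbered tumors correlated between -0.21 and 0.24, and only tumors numbered 1 correlated best with each other. With these numbers as a replicate block on the 12 tumors that have a partner, 90 genes were called higher in GMYC and 161 higher in GTML, with 0 enzymes (5 toward GMYC at an unadjusted p under 0.05) and 0 and 0 other nucleotide genes, and Atic at 0.024. The same 12 tumors without the block gave 1054 and 1326 genes, 2 enzymes, 2 and 1 other nucleotide genes, and Atic at 0.029.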
